A study of Mus musculus with 10 samples.

Results

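Bladders of mice that lacked PRELP were set directly against bladders of mice that lacked OMD, gene by gene and with no wild type library in the comparison. The 6 libraries were taken by their labelled genotype, 3 PRELP-/- and 3 OMD-/-, from the 10 libraries of the series. Counts were deposited for 55536 genes in each library, and 15805 of these were high enough to be tested. The question addressed was in which genes the bladders of the 2 knockouts can be told apart.

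All animals were C57BL/6 mice by their labels, and the study names the substrain C57BL/6J. In each line a β-galactosidase reporter replaces the coding exons (2 and 3) of 1 gene, so the loss is constitutive and present in every cell. PRELP-/- mice, whose genotype is spelled PRLEP-/- in the records, keep Omd, and OMD-/- mice keep Prelp. The labels name no treatment and give neither age nor sex, and they do not say whether a library came from 1 animal or from a pool. The p-values below therefore measure the spread between these libraries, which may in part be technical. The records describe homogenised bladder tissue, whereas the study speaks of isolated bladder epithelia, and the numbers of wild type and OMD-/- samples it gives differ from those of the libraries held here.

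OMD (osteomodulin) and PRELP, a protein with an arginine- and proline-rich amino end, are secreted members of the small leucine-rich proteoglycan (SLRP) family. SLRPs bind collagen and organise the extracellular matrix, and several of them hold growth factors such as TGF-β and BMP ligands or their receptors. In the bladder the innermost cells, the umbrella cells, seal the urothelium with tight junctions and uroplakin plaques, above intermediate and basal cells and a wall of stroma and smooth muscle.

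Total counts lay between 21590156 and 25905707 per library, and levels are given in CPM, counts scaled to a common library size by TMM over the 6 libraries. Values stand in the order of replicates 1 to 3, and where no genotype is named the first set is PRELP-/- and the second OMD-/-. Urothelial markers were abundant, with the 11 umbrella cell genes summing to between 15032 and 26420 CPM and the uroplakin Upk1a between 3506 and 7228 CPM. Genes of the wall were present too. The matrix gene Dcn ran from 1519.6 to 2575 CPM and the smooth muscle myosin gene Myh11 from 44.1 to 175 CPM, so the libraries hold stroma and muscle as well as urothelium. In such bulk samples, fewer cells of a type and less RNA per cell cannot be told apart.

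The libraries did not fall into 2 clean groups. In a principal component analysis of log2 CPM the first component, with 69.7% of the variance, set PRELP-/- replicate 1 apart from the other 5. PRELP-/- replicate 1 differed by more than 1 on the log2 scale from the mean of replicates 2 and 3 in 21.96% of tested genes, against 1.33% between PRELP-/- replicates 2 and 3 and 1.92% between OMD-/- replicates 2 and 3. OMD-/- replicate 1 correlated more closely with PRELP-/- replicates 2 and 3 (r across genes of 0.9908 and 0.99) than with OMD-/- replicates 2 and 3 (0.984 and 0.9839). Genes are not independent replicates, so these correlations are descriptions.

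Sex-linked genes were uneven across the libraries as well. The Y chromosome genes Ddx3y, Eif2s3y, Kdm5d and Uty summed to 111, 17.9 and 17.6 CPM in PRELP-/- and to 17.1, 0.762 and 0.696 CPM in OMD-/-. Xist, the RNA that silences an X chromosome in female cells, was at 0.367, 46.2 and 52.7 CPM in PRELP-/- and 35.99, 83.98 and 72.9 CPM in OMD-/-. So PRELP-/- replicate 1 held Y chromosome RNA with almost no Xist, OMD-/- replicates 2 and 3 held Xist with almost no Y chromosome RNA, and the other 3 libraries held both. With the Y chromosome level as a covariate 4 genes passed the edgeR test described next (0.0253%), namely Prelp, Actg2, Acta2 and Ighv1-78. Log2 differences of several immune and immediate early genes lay closer to 0 in that fit, and values are given with those genes. Those of Actg2 and Acta2 lay further from 0, at -3.83 and -2.26 against -2.58 and -1.35 in the main fit. The median half-width of the 95% interval was 0.69 with the covariate and 0.57 in the main fit. The Y chromosome level itself differed between the genotypes and was highest in replicate 1 of each. The fit therefore cannot separate it from genotype or from replicate 1. Ddx3y and Eif2s3y also passed with the replicate number as a block (adjusted p = 0.0381 and 0.0153 in edgeR's test). The cause was not tested.

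**Figure D1:**
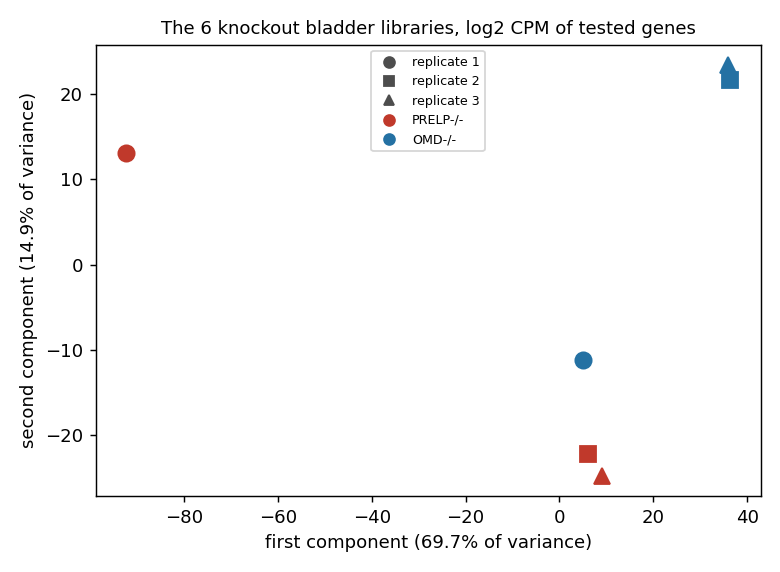
First and second principal components of log2 CPM over the 15805 tested genes, 1 point per library, with colour for the genotype. PRELP-/- replicate 1 lies far to the left at -92.4 on the first component, OMD-/- replicate 1 lies near PRELP-/- replicates 2 and 3, and OMD-/- replicates 2 and 3 lie together on the right.

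Other tests called more genes, as given below, whereas in the main test Prelp was the 1 gene called. It was the only one of 15805 tested (0.00633%) with an adjusted p under 0.05 in edgeR's quasi-likelihood test, two-sided, adjusted by the method of Benjamini and Hochberg, and 0 genes (0%) were called higher in PRELP-/-. At an unadjusted p under 0.05 there were 713 genes (4.51% of those tested), of which 232 (1.47%) were higher and 481 (3.04%) lower in PRELP-/-. The 3 values of one genotype lay wholly below or above those of the other in 2376 genes (15%), 1317 lower (8.33%) and 1059 higher (6.7%).

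The precision differed from gene to gene. For 9985 genes (63.2%) the 95% interval of the log2 difference lay within 1 of 0, and for 2982 genes (18.9%) within 0.5 of 0. The estimate itself lay beyond 1 in either direction for 463 genes (2.93%). On counts simulated for this comparison the test recovered 86% of 200 genes changed by 2 on the log2 scale and 0% of 200 genes changed by 1, so the edgeR test did not detect simulated differences of 2-fold. DESeq2's test called some differences of that size or smaller in the deposited counts, such as that of Ogn (log2 difference 0.69, adjusted p = 0.0183 in DESeq2).

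The count of genes depended on the libraries used. Without PRELP-/- replicate 1 it was 16 genes (0.0986%), without OMD-/- replicate 1 it was 36 (0.221%), and without both it was 3206 (19.9%), 1418 higher (8.82%) and 1788 lower (11.1%). The sets of 16 and 36 shared 2 genes, Prelp and the immunoglobulin segment Igkv4-72, and the set of 3206 contained all 16 and all 36. In that last fit each genotype was represented by libraries that lay close together, and the labels do not say whether they came from separate animals. Sex-linked RNA also separated the genotypes in it. The Y chromosome genes summed to 17.9 and 17.6 CPM in the PRELP-/- libraries left and to 0.762 and 0.696 CPM in the OMD-/- libraries left. Genotype and sex-linked content therefore cannot be told apart in any call of that fit. With replicates 2 and 3 of each genotype summed into 1 library instead, 0 genes (0%) passed in the edgeR test and 186 (1.11%) had an unadjusted p under 0.05. With the replicate number as a block 43 genes passed (0.272%), 3 higher (0.019%) and 40 lower (0.253%), of which 26 were immunoglobulin genes. The labels name no pairing by number, so the block is an alternative fit only. DESeq2's test called 54 (0.342%), 25 of them immunoglobulin genes. Among the others were Prelp, Optc, Ogn, Ccn1, Ccn2, Cxcl13, Spp1, Actg2, Myl9, Cnn2, Dbp, Klf10, Stk32b and Ccdc184.

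Prelp checked the PRELP-/- label. Prelp (ENSMUSG00000041577, GRCm38 chr1:133910304-133921414, minus strand) was at 3.88, 1.75 and 2.01 CPM in PRELP-/- and 728, 779 and 786 CPM in OMD-/-. All 3 PRELP-/- libraries were far below all 3 OMD-/- libraries, and the mean in PRELP-/- was 0.334% of that in OMD-/-. Prelp was lower by a log2 difference of -8.24 (SE 0.38, 95% interval -9.15 to -7.33, adjusted p = 0.00224 in edgeR's quasi-likelihood test). Residual counts of 74, 46 and 46 remained in the PRELP-/- libraries. Among the alternative fits, the one with replicates 2 and 3 summed was the only one in which Prelp was not called.

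Omd checked the other label, at a level close to the limit of detection. Omd (ENSMUSG00000048368, chr13:49582462-49592822, plus strand) had 0 counts in each OMD-/- library and 5, 7 and 7 counts in PRELP-/- replicates 1 to 3, which is 0.262, 0.267 and 0.306 CPM. The groups did not overlap, but the gene was too low for the fit across genes. The mean of 0.278 ± 0.0239 CPM (SD, n = 3) in PRELP-/- was at least 2.17-fold higher than the 3 counts per library that a count of 0 allows, a bound that covers counting error only. An exact permutation test, two-sided, gave p = 0.1, the smallest that 3 against 3 can reach. Omd lies within Cenpp on the opposite strand, and since the strand setting of the counting is not given in the sources used here, its few counts are uncertain.

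Prelp has the SLRP gene Optc beside it, and Omd lies between the SLRP genes Aspn, 14.9 kb away, and Ogn. Optc and Ogn each had lower values in the knockout of the gene beside them, whereas for Aspn the groups overlapped, as given below. Optc (chr1:133897199-133907999, minus strand) encodes opticin, an SLRP best known from the vitreous of the eye, and lies 2.305 kb from Prelp. It was at 0.105, 0.0763 and 0.0437 CPM in PRELP-/- and 1.1996, 0.882 and 0.782 CPM in OMD-/-, with no overlap. Its log2 difference was -3.60 (SE 0.46, unadjusted p = 0.000101, adjusted p = 0.4 in edgeR's test), from 1 to 2 counts per library in PRELP-/-. Ogn (chr13:49608046-49624501, plus strand) encodes osteoglycin, also called mimecan, and lies 15.2 kb beyond Omd on the same strand. It was at 26.8, 26.2 and 30.5 CPM in PRELP-/- and 19.1, 17.4 and 15.8 CPM in OMD-/-. The groups did not overlap, and the means were 27.8 ± 2.32 and 17.4 ± 1.64 CPM (SD, n = 3 each), a log2 difference of 0.68 (SE 0.14, unadjusted p = 0.00224, adjusted p = 0.69 in edgeR's test). Neither difference passed the adjusted threshold in edgeR's test, whereas DESeq2's test called both genes. Ogn, like Omd, lies within Cenpp on the opposite strand, but Cenpp itself reached at most 0.525 CPM in these libraries.

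The 250 bases before the annotated start of Optc and Ogn are shown because these genes flank the deleted loci, and those of Ccn1 because it had the smallest p outside them, as described further on. The sequences are RefSeq's on GRCm38.p6, written 5′ to 3′ on the gene's own strand. Capitals mark 2 motifs searched on both strands, the TEAD core GGAATG (reverse CATTCC) and the TATA box TATAAA (reverse TTTATA).
Optc, chr1:133908000-133908249, minus strand: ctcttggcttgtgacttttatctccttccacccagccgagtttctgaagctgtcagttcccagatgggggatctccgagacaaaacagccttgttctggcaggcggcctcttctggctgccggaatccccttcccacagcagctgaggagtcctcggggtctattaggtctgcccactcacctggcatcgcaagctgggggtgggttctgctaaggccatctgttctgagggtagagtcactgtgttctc
Ogn, chr13:49607765-49608014, plus strand: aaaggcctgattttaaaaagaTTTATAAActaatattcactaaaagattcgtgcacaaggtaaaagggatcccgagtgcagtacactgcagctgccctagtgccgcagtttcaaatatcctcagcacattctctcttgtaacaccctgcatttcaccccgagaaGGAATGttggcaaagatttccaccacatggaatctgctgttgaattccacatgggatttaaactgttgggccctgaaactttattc
Ccn1, chr3:145649986-145650235, minus strand: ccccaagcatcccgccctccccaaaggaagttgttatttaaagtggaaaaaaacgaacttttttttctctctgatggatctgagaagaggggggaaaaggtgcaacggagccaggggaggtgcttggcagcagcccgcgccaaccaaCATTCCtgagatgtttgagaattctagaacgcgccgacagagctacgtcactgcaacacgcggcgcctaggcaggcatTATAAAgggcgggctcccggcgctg
Optc held neither motif in this window. Ogn held a TEAD core 86 bases before the start and, 227 bases before it, a TATA box whose forward and reverse forms overlap. Ccn1 held the TEAD core in reverse 103 bases and a TATA box 25 bases before the start. Of 32851 promoter windows of the same length, 12.6% held the TEAD core and 12.4% the TATA box in either orientation, so both are common and a match describes letters only. The CArG box, which serum response factor binds, was searched too and was held by 1.47% of all windows.

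**Figure D2:**
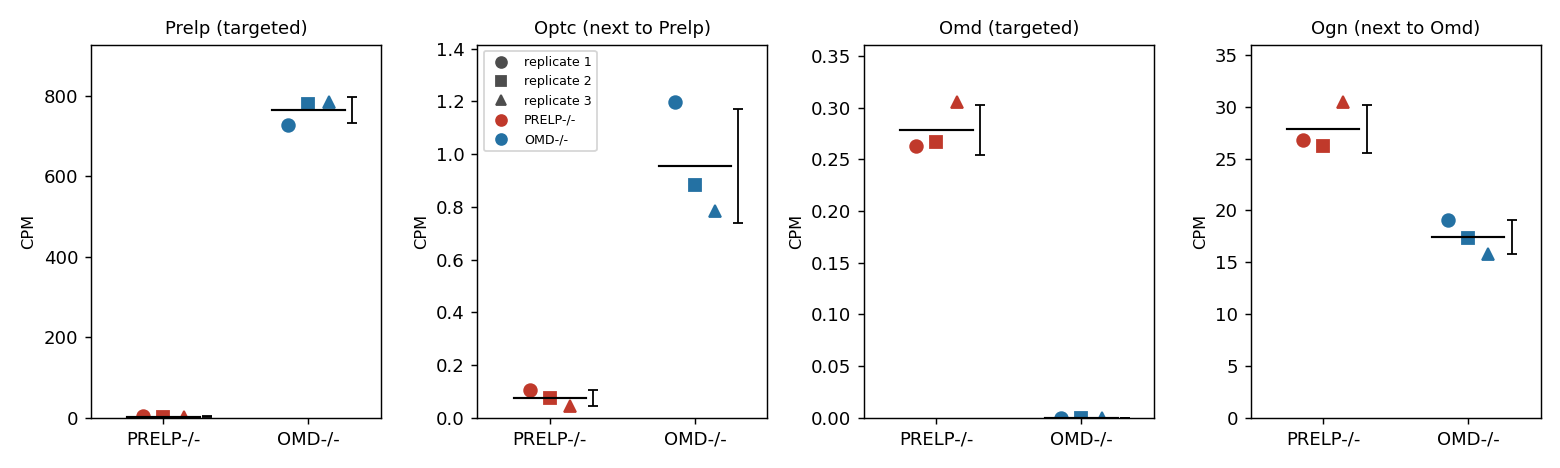
Level in CPM of Prelp, Optc, Omd and Ogn in each library, with a horizontal line at each genotype's mean and a bar of 1 SD beside it (n = 3). Prelp and Optc are low in all 3 PRELP-/- libraries, Omd is at 0 in all 3 OMD-/- libraries, and Ogn is at 15.8 to 19.1 CPM in OMD-/- and 26.2 to 30.5 CPM in PRELP-/-.

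Over a wider stretch, 25 of 38 protein-coding genes within 1 Mb of Prelp were tested. Beside 3.04% of all genes, 3 of them had an unadjusted p under 0.05, all lower in PRELP-/-. These were Optc, Atp2b4 and Lax1. Atp2b4, a plasma membrane calcium pump, was at 24.98, 45.4 and 47.1 CPM in PRELP-/- and 61.2, 73.6 and 75.6 CPM in OMD-/- (log2 difference -0.84, SE 0.26), with no overlap. Lax1, an adaptor of lymphocyte receptors, was at 0.682, 0.839 and 0.524 CPM and 0.711, 2.25 and 3.35 CPM and overlapped. Within 1 Mb of Omd 17 of 23 coding genes were tested. Ogn, higher in PRELP-/-, was the 1 gene with an unadjusted p under 0.05, beside 1.47% of all genes. Aspn (asporin), the SLRP gene on the other side of Omd, was at 2.78 to 3.801 CPM in PRELP-/- and 2.85 to 2.98 CPM in OMD-/-, so the groups overlapped.

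For the rest of the SLRP family no difference was detected with all 6 libraries. Of 17 SLRP genes 13 were tested, 4 above and 9 below 0, and apart from Prelp, Optc and Ogn no member had an unadjusted p under 0.05. Dcn (decorin), which binds collagen fibrils and TGF-β, was at 1519.6, 2555 and 2575 CPM in PRELP-/- and 2327, 2516 and 2556 CPM in OMD-/- (log2 difference -0.15, 95% interval -0.75 to 0.45). Bgn (biglycan) was at 839 to 1073 CPM in PRELP-/- and 1024 to 1145 CPM in OMD-/- (log2 difference -0.15, 95% interval -0.58 to 0.27). Lum (lumican) and Fmod (fibromodulin), which regulate the width of collagen fibrils, differed by -0.42 (95% interval -1.13 to 0.29) and -0.28 (95% interval -0.80 to 0.24) on the log2 scale. All 4 had their lowest value in PRELP-/- replicate 1. Without that library the median difference over the 13 genes was -0.03, against -0.20 with it and -0.0020 over all tested genes. Without both replicates 1 the edgeR test called 2 of the 13 higher and 5 lower, Prelp included, beside 8.82% and 11.1% of all genes.

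Outside the targeted loci, the smallest p was that of Ccn1. It encodes CYR61, a matricellular protein that cells secrete on mechanical and growth factor stimuli and a classical target of YAP and TEAD. Ccn1 (ENSMUSG00000028195, chr3:145646976-145649981, minus strand) was at 3.99, 3.89 and 4.85 CPM in PRELP-/- and 40.7, 99.9 and 99.9 CPM in OMD-/-. All 3 OMD-/- libraries were far above all 3 PRELP-/- libraries, with OMD-/- replicate 1 below replicates 2 and 3. The difference was -4.24 on the log2 scale (SE 0.39, 95% interval -5.17 to -3.30), 18.9-fold, with an unadjusted p of 1.48e-05 and an adjusted p of 0.117 in edgeR's test. The adjusted p was 0.0122 with the replicate number as a block and 0.00432 without OMD-/- replicate 1, both in the edgeR test.

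The family member Ccn2 (CTGF), which TGF-β and YAP induce, was at 7.503, 7.21 and 6.903 CPM in PRELP-/- and 12.5, 24.9 and 25.5 CPM in OMD-/-. Again the groups did not overlap and OMD-/- replicate 1 was the lowest of its group. The log2 difference was -1.54 (SE 0.29, unadjusted p = 0.00107, adjusted p = 0.69, and 0.0269 without OMD-/- replicate 1, all in edgeR's test). Of the 8 TGF-β target genes tested 7 were below 0. The 2 with an unadjusted p under 0.05, Ccn2 among them, were both lower in PRELP-/-, beside 3.04% of all genes. The 23 ligands, receptors and Smads of the pathway had a median difference of -0.12, and none had an unadjusted p under 0.05. In the fit without both replicates 1 the edgeR test called 3 of these 23 higher and 7 lower. It called 5 of the 8 target genes lower and 0 higher, beside 8.82% of all genes higher and 11.1% lower.

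Genes of the immediate early class, which cells switch on soon after a stimulus, were mixed. Of 13 tested, 9 were below 0 and 4 above, with 1 lower and 1 higher without overlap, beside 8.33% and 6.7% of all genes. Jun, Egr1, Egr2 and Egr3 had an unadjusted p under 0.05, all lower in PRELP-/-, beside 3.04% of all genes. The median difference was -0.52 against -0.0020 over all tested genes, whereas the summed level overlapped, at 602, 459 and 445 CPM in PRELP-/- and 455, 492 and 476 CPM in OMD-/-. Without both replicates 1 the edgeR test called 3 higher and 8 lower, beside 8.82% and 11.1% of all genes. Egr1, a factor induced within minutes by growth factors, was at 5.56, 8.201 and 9.13 CPM in PRELP-/- and 8.49, 27.2 and 29.6 CPM in OMD-/-. OMD-/- replicate 1 lay among the PRELP-/- values and replicates 2 and 3 above them. Jun, a subunit of AP-1, was at 26.2, 40.8 and 41.6 CPM and 38.1, 82.3 and 78.1 CPM, with the same order. Jun also overlaps the antisense gene Junos, so its level is uncertain. Myc, a cell growth regulator outside this list, was at 12.3, 23.6 and 27.1 CPM in PRELP-/- and 27.5, 41.8 and 42.8 CPM in OMD-/- (log2 difference -0.83, SE 0.32), without overlap. None of these passed the adjusted threshold. With the Y chromosome covariate the log2 difference went from -1.51 to -0.03 for Egr1 and from -0.83 to -0.05 for Myc.

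Feedback inhibitors of ERK signalling were the EGF pathway genes that differed at an unadjusted p under 0.05. Dusp6, a phosphatase of ERK, was at 12.4, 12.9 and 13.9 CPM in PRELP-/- and 18.6, 18.2 and 19.3 CPM in OMD-/-, and Spry4, an inhibitor of receptor tyrosine kinase signalling, at 7.29, 6.26 and 5.68 CPM and 9.55, 12.5 and 10.95 CPM. Neither overlapped, and OMD-/- replicate 1 lay with its group. The log2 differences were -0.52 (SE 0.13) and -0.78 (SE 0.18), and the adjusted p was 0.69 for both in edgeR's test. Spry1, a relative of Spry4, completed the 3 of 28 tested, beside 3.04% of all genes, at 18.5, 17.9 and 16.4 CPM and 20.2, 25.99 and 22.6 CPM. The median over the 28 was -0.13. Of the 10 Wnt target genes 9 were below 0, with a median of -0.40 that was -0.20 without PRELP-/- replicate 1, and none had an unadjusted p under 0.05.

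Smooth muscle genes had lower values in PRELP-/-, with the highest sum in OMD-/- replicate 1. All 11 genes of the list were below 0, 7 of them without overlap, beside 8.33% of all genes. Actg2, Acta2, Myh11 and Cnn1 had an unadjusted p under 0.05, beside 3.04% of all genes, and 0 passed the adjusted threshold. The summed level was 429, 494 and 494 CPM in PRELP-/- and 1077, 661 and 670.4 CPM in OMD-/-. Actg2, the smooth muscle actin of hollow organs, was at 12.02, 6.79 and 6.73 CPM in PRELP-/- and 96.9, 26.5 and 29.4 CPM in OMD-/-, and Acta2, the other smooth muscle actin, at 128, 79.3 and 77.8 CPM and 378, 171 and 179 CPM. The groups did not overlap for either actin, and OMD-/- replicate 1 stood above replicates 2 and 3. For Actg2 the log2 difference was -2.58 (SE 0.57), with an adjusted p of 0.69 in the edgeR test and of 0.0361 with the replicate number as a block. For Acta2 it was -1.35 (SE 0.37). Myh11 was at 44.1, 83.2 and 81.7 CPM and 175, 103 and 104 CPM (log2 difference -0.87, SE 0.32).

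Some contractile genes outside the list had the same order with less spread. Myl9, a regulatory light chain of myosin in smooth muscle, was at 58.8, 48.98 and 47.97 CPM in PRELP-/- and 148, 92.4 and 96.9 CPM in OMD-/- (log2 difference -1.11, SE 0.22, unadjusted p = 0.00148, adjusted p = 0.69 in edgeR's test). Cnn2, a calponin of contractile and other cells, was at 65.6, 71.1 and 69.6 CPM and 129, 107 and 107 CPM, and was among the 16 genes called without PRELP-/- replicate 1 (adjusted p = 0.0432 in edgeR's test). Neither overlapped between the genotypes. Cnn1, the calponin of smooth muscle, was at 5.82, 2.48 and 2.45 CPM and 40.2, 5.09 and 4.48 CPM, so the groups overlapped and OMD-/- replicate 1 stood far above the rest. Its log2 difference of -2.22 was -0.43 without OMD-/- replicate 1 and -0.97 without both replicates 1.

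**Figure D3:**
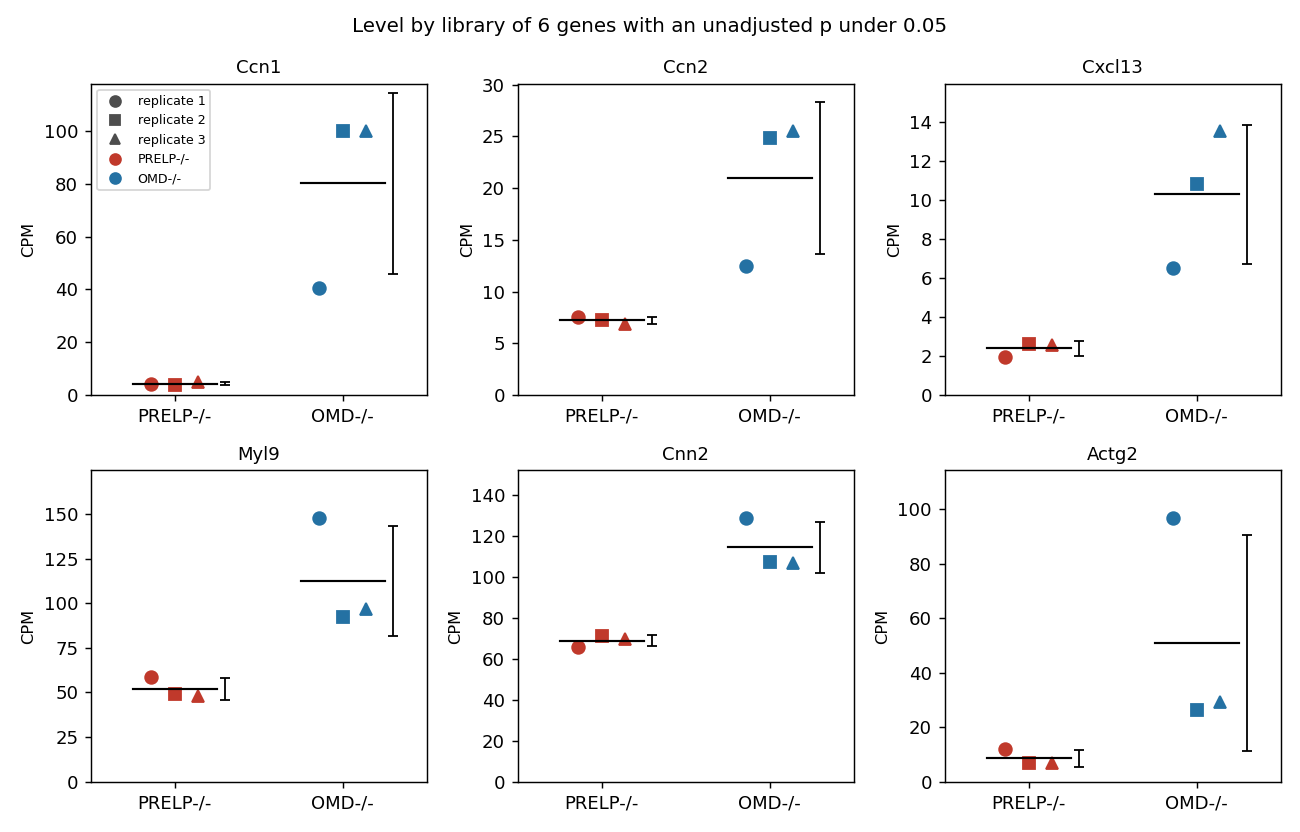
Level in CPM by library of Ccn1, Ccn2, Cxcl13, Myl9, Cnn2 and Actg2, with a horizontal line at each genotype's mean and a bar of 1 SD beside it (n = 3). In every panel the 3 PRELP-/- libraries lie below the 3 OMD-/- libraries. OMD-/- replicate 1 is the lowest of its group for Ccn1, Ccn2 and Cxcl13 and the highest for Myl9, Cnn2 and Actg2.

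Collagens and other matrix genes were all below 0, 21 of 21 tested, with a median difference of -0.36, and Lox and Loxl2 had an unadjusted p under 0.05, beside 3.04% of all genes. These encode enzymes that cross-link collagen and elastin. Lox was at 46.8, 48.8 and 51.7 CPM in PRELP-/- and 66.2, 71.7 and 67.6 CPM in OMD-/- (log2 difference -0.48, SE 0.13), and Loxl2 at 36.2, 48.4 and 46.9 CPM and 65.8, 69.4 and 68.6 CPM (log2 difference -0.63, SE 0.16). Neither enzyme overlapped between the genotypes, and Loxl2 passed without PRELP-/- replicate 1 (adjusted p = 0.0458 in the edgeR test). Without that library the median over the 21 genes was -0.16. Fstl1, a secreted glycoprotein that binds BMP and TGF-β family ligands, was at 166, 234 and 222 CPM in PRELP-/- and 329, 341 and 341 CPM in OMD-/- (log2 difference -0.70, SE 0.17), and was called without PRELP-/- replicate 1 (adjusted p = 0.0293 in edgeR's test). Thsd4, a protein of the microfibrils of elastic fibres, was called there too (adjusted p = 0.0458 in edgeR's test), with 67.6, 185 and 179.97 CPM against 260.2, 246 and 256 CPM.

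Among 12 genes of coagulation and fibrinolysis, 3 were lower, Plat and F3 among them, and F5 was higher in PRELP-/- at an unadjusted p under 0.05, beside 3.04% and 1.47% of all genes. Plat, the tissue plasminogen activator, was at 32.4, 42.04 and 38.01 CPM in PRELP-/- and 53.8, 56.8 and 63.5 CPM in OMD-/- (log2 difference -0.63, SE 0.15). F3, the tissue factor that starts coagulation, was at 15.5, 25.7 and 29.6 CPM and 34.4, 38.7 and 41.9 CPM (log2 difference -0.70, SE 0.25), and F5, coagulation factor V, at 0.787, 0.572 and 0.524 CPM and 0.178, 0.1604 and 0.217 CPM (log2 difference 1.72, SE 0.39). None of these groups overlapped, and the adjusted p was 0.69 for each in the edgeR test.

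Immunoglobulin genes had the median difference furthest from 0 of the gene groups described. Of the 432 annotated, 60 were tested, 56 of these were below 0 and the median log2 difference was -3.12. A gene could enter the test through its level in 1 genotype alone, and some segments near 0 in PRELP-/- entered through OMD-/-. The counts and the median over tested genes are therefore tied in part to high values in OMD-/-. The summed level below is over all 432 and does not depend on which genes were tested. An unadjusted p under 0.05 was reached by 40 lower and 1 higher, beside 3.04% and 1.47% of all genes, and 0 passed the adjusted threshold. Their summed level was 26.1, 416 and 395 CPM in PRELP-/- and 589, 3192 and 3324 CPM in OMD-/-. These sums did not overlap, but the range within each genotype was wide, with replicate 1 the lowest of both. Ighm, the heavy chain of IgM, was at 11.8, 137 and 135 CPM in PRELP-/- and 219.9, 1141 and 1188 CPM in OMD-/- (adjusted p = 0.69, and 0.018 with the replicate number as a block, both in edgeR's test). Ighg2b, a class-switched heavy chain, was at 0, 2.63 and 2.403 CPM and 5.998, 197 and 212 CPM, and Jchain, which joins IgA and IgM into polymers, at 1.31, 20.3 and 20.7 CPM and 28.3, 135 and 133 CPM. The OMD-/- libraries were above the PRELP-/- libraries for all 3. Under the block the adjusted p was 0.00169 for Ighg2b and 0.0441 for Jchain in edgeR's test. With the Y chromosome covariate the log2 difference went from -3.17 to -0.53 for Ighm and from -6.32 to -1.16 for Ighg2b.

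Single variable segments differed by more. Igkv4-72 was at 0, 0.0763 and 0.0874 CPM in PRELP-/- and 2.09, 5.98 and 4.39 CPM in OMD-/-, and was called both without PRELP-/- replicate 1 (adjusted p = 0.0311) and without OMD-/- replicate 1 (0.0313) in edgeR's test. Ighv3-6 was at 0, 0.0763 and 0.218 CPM against 2.98, 23.1 and 25.2 CPM, and Igkv6-17 at 0, 0.191 and 0.262 CPM against 2.13, 67.8 and 67.6 CPM. Replicate 1 was the lowest of each group for all 3. These segments entered the test through their level in OMD-/- and were named after their values were seen. Their adjusted p-values are therefore descriptions only. With the block the adjusted p was 0.0145 for Igkv4-72, 0.0023 for Ighv3-6 and 0.000931 for Igkv6-17 in edgeR's test. With the Y chromosome covariate the log2 difference of Igkv6-17 went from -8.12 to -3.17. One segment went the other way, Ighv1-78, at 0.105, 6.83 and 7.03 CPM in PRELP-/- and 0.0444, 0.722 and 0.869 CPM in OMD-/-, which was among the 3 genes higher under the block (adjusted p = 0.044 in edgeR's test). Each animal's B cells use their own set of segments, and near-identical segments can share reads, so values of single segments are uncertain.

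Genes of B cells themselves were low and ordered like the immunoglobulins. Cd79a, a signalling chain of the B cell receptor, was at 0.105, 1.602 and 1.05 CPM in PRELP-/- and 2.89, 17.1 and 17.4 CPM in OMD-/-. The groups did not overlap. The log2 difference was -3.70 (SE 0.90), and under the block the adjusted p was 0.0122 in edgeR's test. All 9 lymphocyte genes were below 0 and 5 had an unadjusted p under 0.05, beside 3.04% of all genes, among them Cd79a, Cd79b, Ms4a1 and the T cell receptor subunit Cd3g. Ms4a1, the CD20 antigen of B cells, had an adjusted p of 0.0441 under the block in edgeR's test, and its log2 difference went from -3.41 to -0.07 with the Y chromosome covariate. The list summed to 13.96, 19.03 and 17.6 CPM in PRELP-/- and 20.2, 80.7 and 84.2 CPM in OMD-/-, so OMD-/- replicate 1 lay close to the PRELP-/- libraries and replicates 2 and 3 far above.

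Cxcl13, the chemokine that draws B cells into follicles, was at 1.94, 2.63 and 2.58 CPM in PRELP-/- and 6.49, 10.8 and 13.5 CPM in OMD-/-. The groups did not overlap, and the log2 difference was -2.10 (SE 0.31, unadjusted p = 0.000276, adjusted p = 0.69, and 0.0357 with the block and 0.0419 without OMD-/- replicate 1, all in edgeR's test). Spp1 (osteopontin), a phosphoprotein that macrophages and other cells secrete, was at 0.157, 0.572 and 0.524 CPM and 1.16, 4.21 and 4.13 CPM, with an adjusted p of 0.0357 under the block in edgeR's test. Macrophage genes were below 0 in 9 of 9, and Cd68, Lyz2 and C1qb had an unadjusted p under 0.05, beside 3.04% of all genes. Cd68, a lysosomal glycoprotein, was at 11.9, 13.1 and 12.6 CPM in PRELP-/- and 15.4, 25.8 and 29.5 CPM in OMD-/-, and the lysozyme gene Lyz2 at 83.1, 148 and 142 CPM and 149.95, 301 and 314 CPM. The log2 difference of Lyz2 went from -1.03 to -0.03 with the Y chromosome covariate. The summed macrophage level was 367, 472 and 465 CPM in PRELP-/- and 449.99, 814 and 834 CPM in OMD-/-, with OMD-/- replicate 1 within the PRELP-/- range. All 7 genes of MHC class II presentation were below 0 too, and H2-Eb1 and Cd74 had an unadjusted p under 0.05, beside 3.04% of all genes. Cd74, the invariant chain, was at 329.9, 556 and 521 CPM in PRELP-/- and 517, 896 and 924 CPM in OMD-/-, again with OMD-/- replicate 1 within the PRELP-/- range.

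**Figure D4:**
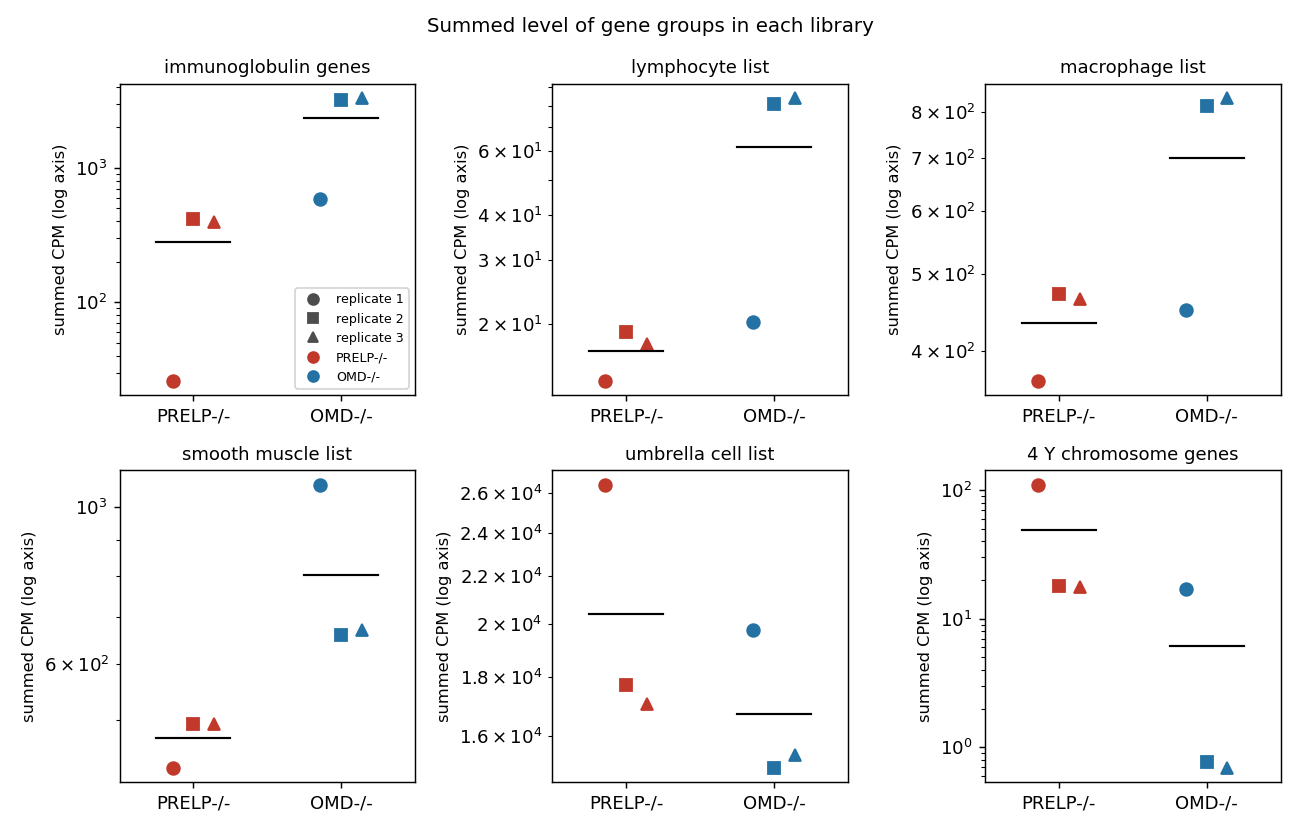
Summed CPM of 6 gene groups in each library on log axes, with a horizontal line at each genotype's mean. For immune groups OMD-/- replicates 2 and 3 stand above the other 4 libraries, smooth muscle genes are highest in OMD-/- replicate 1, and umbrella cell genes are highest in PRELP-/- replicate 1.

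For the urothelium no difference was detected with all 6 libraries. None of the 11 umbrella cell, 8 basal and 8 urothelial transcription factor genes had an unadjusted p under 0.05, and the medians were 0.17, -0.01 and 0.02. Upk3a, a uroplakin of the apical plaque, was at 4391, 2251 and 2077 CPM in PRELP-/- and 2639.96, 1649.9 and 1729 CPM in OMD-/- (log2 difference 0.53, 95% interval -0.32 to 1.39), and Krt20, the keratin of umbrella cells, at 136, 227 and 218 CPM and 231, 223 and 231 CPM (-0.24, 95% interval -0.74 to 0.27). In both genotypes replicate 1 held the highest Upk3a value. Without PRELP-/- replicate 1 the umbrella median was 0.04. Without both replicates 1 it was 0.16, and 9 of the 11 umbrella genes were then called higher in PRELP-/- by the edgeR test, beside 8.82% of all genes.

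Junction genes gave few calls with all 6 libraries and more without both replicates 1. Of 25 tight junction genes 1 was higher at an unadjusted p under 0.05, beside 1.47% of all genes. This was the claudin gene Cldn23, at 43.1, 39.6 and 42.03 CPM in PRELP-/- and 35.6, 30.3 and 26.8 CPM in OMD-/- (log2 difference 0.43, SE 0.15, unadjusted p = 0.0254, adjusted p = 0.69 in edgeR's test). Every PRELP-/- value was above every OMD-/- value. Of 17 adherens junction genes Actn1, an actin cross-linker, was lower at an unadjusted p under 0.05, beside 3.04% of all genes. Of 9 desmosome genes 0 were. Medians were 0.07 for tight junctions, -0.21 for adherens junctions and -0.04 for desmosomes, and without PRELP-/- replicate 1 they were 0.07, 0.0044 and 0.20. Without both replicates 1 the edgeR test called 9 of 25 tight junction genes higher and 1 lower, 4 of 17 adherens junction genes higher and 2 lower, and 6 of 9 desmosome genes higher, beside 8.82% of all genes higher and 11.1% lower. Of 20 genes of epithelial-mesenchymal transition Acta2 was lower and Snai1 higher at an unadjusted p under 0.05, beside 3.04% and 1.47% of all genes. Their median was -0.06. Snai1, a repressor of E-cadherin, was at 17.3, 28.4 and 28.1 CPM in PRELP-/- and 15.99, 15.3 and 14.8 CPM in OMD-/- (log2 difference 0.68, SE 0.21). Every PRELP-/- value of Snai1 was above every OMD-/- value, and without PRELP-/- replicate 1 its adjusted p was 0.0148 in edgeR's test.

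Among lists of other cell types and states, none of 8 fibroblast, 8 endothelial, 10 interferon response, 9 proliferation and 9 heat shock genes tested had an unadjusted p under 0.05. Their medians were -0.31, -0.28, -0.37, -0.29 and -0.02. Without both replicates 1 the edgeR test called 1 fibroblast and 2 heat shock genes higher. It called 5 fibroblast, 4 endothelial, 7 interferon response and 4 proliferation genes lower. In that fit all 9 macrophage, 9 lymphocyte and 7 MHC class II genes were called lower, as were 18 of 21 matrix genes. So were 6 of 10 Wnt target and 6 of 11 smooth muscle genes, beside 11.1% of all genes lower and 8.82% higher. Of 7 nerve and glia genes 1 was lower at an unadjusted p under 0.05, and of 4 nuclear long noncoding RNAs Malat1 was lower. The share of all genes lower at that threshold was 3.04%. Most adipose and skeletal muscle markers were too low to test, with 3 of 11 and 2 of 8 tested.

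**Figure D5:**
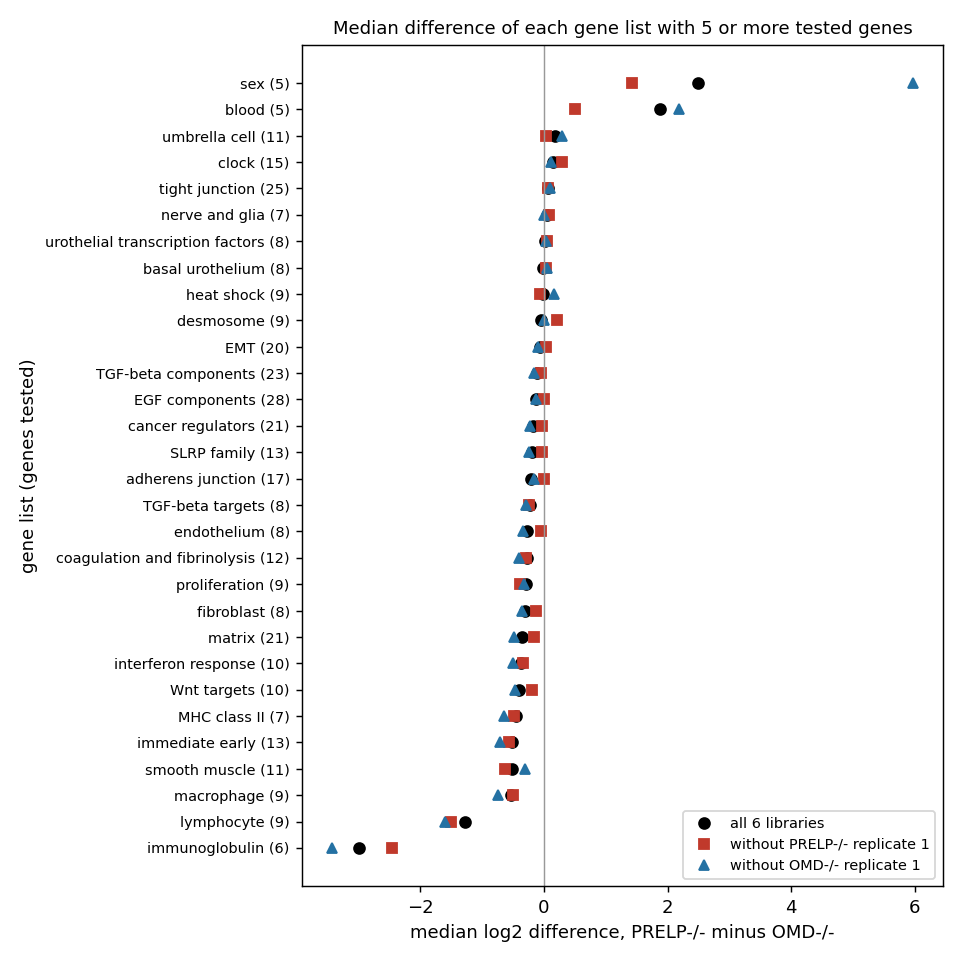
Median log2 difference of PRELP-/- minus OMD-/- for each gene list with 5 or more tested genes, from all 6 libraries and with replicate 1 of a genotype left out. Urothelial and junction lists lie between -0.21 and 0.30 and immune and smooth muscle lists lie below 0 in each fit, while the blood and sex lists lie above it and move the most between fits.

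Clock genes went both ways. Of 15 tested, 8 were above 0 and 7 below, with 4 higher and 3 lower in PRELP-/- without overlap, beside 6.7% and 8.33% of all genes. Dbp, a transcription factor of the circadian output, was at 43.2, 49.8 and 50.7 CPM in PRELP-/- and 30.3, 30.2 and 30.4 CPM in OMD-/- (log2 difference 0.66, SE 0.13, unadjusted p = 0.00144, adjusted p = 0.69, and 0.0148 without PRELP-/- replicate 1, all in edgeR's test). The OMD-/- values lay close together and below every PRELP-/- value. Nr1d1 (REV-ERBα), a repressor in the clock loop, was at 138, 189 and 185 CPM and 119.9, 126 and 131 CPM, and Tef, a factor related to Dbp, at 155, 131 and 130.5 CPM and 111, 109 and 101 CPM. These 3 were higher and Cry1 was lower at an unadjusted p under 0.05, beside 1.47% and 3.04% of all genes. Cry1, a repressor of the clock, was at 6.51, 8.77 and 8.21 CPM against 11.996, 10.6 and 9.95 CPM. None of the 4 overlapped between the genotypes, and the labels do not give the hour of collection. Dbp overlaps Sphk2 and Nr1d1 overlaps Thra, each an expressed gene on the opposite strand, so both levels are uncertain.

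Stk32b, which encodes a serine/threonine kinase, had the smallest p among the higher genes, at 1.99, 1.75 and 1.27 CPM in PRELP-/- and 0.3999, 0.441 and 0.565 CPM in OMD-/- (log2 difference 1.82, SE 0.32, unadjusted p = 0.000698, adjusted p = 0.69 in edgeR's test). Ccdc184 was at 18.5, 10.8 and 9.6997 CPM and 5.95, 5.695 and 5.61 CPM (log2 difference 1.17, SE 0.27). Klf10, a zinc finger factor first described as an early TGF-β response gene, was at 86.4, 96.2 and 101 CPM and 67.5, 67.1 and 64.5 CPM, and was called without PRELP-/- replicate 1 (adjusted p = 0.0293 in edgeR's test). None of these 3 genes overlapped between the genotypes. Diablo, a pro-apoptotic mitochondrial protein, Tmprss11a, a membrane serine protease of epithelia, and Cpe, a carboxypeptidase of secretory granules, came next among the higher genes, with log2 differences of 1.34, 0.74 and 0.49.

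Some genes stood out once PRELP-/- replicate 1 was left out. Ttr, the carrier of thyroid hormone and retinol, was at 25.7, 73.7 and 69.8 CPM in PRELP-/- and 38.3, 32.6 and 32.9 CPM in OMD-/-. PRELP-/- replicate 1 was below every OMD-/- library and replicates 2 and 3 were above them, and without it the log2 difference was 1.05 (adjusted p = 0.00666 in edgeR's test). Ide, the insulin-degrading enzyme, was at 159.5, 264 and 261 CPM against 174, 156 and 155 CPM, with an adjusted p of 0.0148 in that fit of the edgeR test. Apoc1, an apolipoprotein, was at 83.5, 47.5 and 47.9 CPM against 31.1, 30.8 and 33.6 CPM, all 3 PRELP-/- libraries above, and also passed there (adjusted p = 0.0458 in edgeR's test).

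The library that stood apart, PRELP-/- replicate 1, carried more blood and ribosomal protein RNA and less RNA of long genes. Hbb-bs, an adult β-globin, was at 296, 41.5 and 38.9 CPM in PRELP-/- and 36.97, 24.9 and 23.3 CPM in OMD-/-. The ribosomal protein genes summed to 146848, 52943 and 50362 CPM in PRELP-/- and 56637, 41460.5 and 42345 CPM in OMD-/-, and all 80 tested were above 0, with a median difference of 0.83 that was 0.14 without that library. The difference was not confined to that library, since PRELP-/- replicates 2 and 3 also lay above OMD-/- replicates 2 and 3. In the fit without both replicates 1 the edgeR test called 72 of the 83 annotated ribosomal protein genes, beside 19.9% of all genes. When the tested genes were split into 4 equal classes by exon length, PRELP-/- replicate 1 differed from PRELP-/- replicates 2 and 3 by a median of 0.60 on the log2 scale in the shortest class and -0.62 in the longest. Over the whole comparison these classes had medians of 0.25 and -0.17, and 0.0072 and -0.0057 without that library. The part of exon length and of blood, ribosomal protein, muscle and immune RNA in the results for single genes was not tested.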

How the data were processed

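RNA-seq read counts of 6 bladder libraries, 3 PRELP-/- and 3 OMD-/-, were compared. The authors deposited raw counts per Ensembl gene for each library, made with featureCounts from HISAT2 alignments per the file headers, whereas the submitters' processing notes name STAR 2.5.2b. The identifiers equal those of a GENCODE annotation of GRCm38, from which symbols were taken. The strand setting and the use of molecular identifiers are not given in the sources used here, so bounds from counts cover counting error only. Deposited DESeq2 tables hold the authors' comparisons of each knockout with wild type and were not used.

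Counts were filtered with edgeR's filterByExpr (minimum count 10), scaled by TMM and tested across all genes with edgeR's robust quasi-likelihood fit (edgeR 4.0.16, R 4.3.3), PRELP-/- minus OMD-/- with no covariate, Benjamini-Hochberg adjustment and a threshold of 0.05. Log2 CPM used a prior count of 2, and 95% intervals were built from the SE and the fit's degrees of freedom. The script was tested on simulated data. Omd, too low for the fit, was compared by an exact permutation test.

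Samples were grouped by their labelled genotype. Same-numbered libraries of the 2 genotypes deviated together from their group means (r = 0.353, 0.217 and 0.192 across genes for replicates 1 to 3). The numbers come from the labels, which name no shared litter or day. Replicates 2 and 3 correlated as strongly across numbers (0.219 and 0.256). The check therefore cannot tell pairing by number from both replicates 1 standing apart. The block was kept as an alternative fit, and its adjusted p-values do not rest on a known pairing.

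Genes named are Omd and Prelp, genes past the threshold, the 8 with the smallest p in each direction among genes of at least 1 CPM without overlap (in the whole comparison and without PRELP-/- replicate 1), coding genes within 1 Mb of either target, the SLRP family, and the extremes of each gene list. Myl9, Spp1, single immunoglobulin segments and other list members were named after their values were seen. Members and lists were chosen with earlier results of these data known, and lists were summarised without a test. Some list members that enter the counts are not reported here by name. Alternatives were other scalings, filters and tools (DESeq2 1.42.0, limma 3.58.1), all 10 libraries in 1 fit, a replicate block and leaving out each library. The fits without both replicates 1, with replicates 2 and 3 summed, without immunoglobulin genes and with a Y chromosome covariate were added after seeing the data. Promoters were matched by symbol to a RefSeq table on GRCm38.p6, which held 11285 of the 15805 tested genes.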

Additional observations from a re-analysis of the deposited data

How the results depend on the processing

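The number of genes with an adjusted p under 0.05 was 5 with no filter on low counts, 54 by DESeq2, 3 with all 10 libraries in 1 fit, 4 with the Y chromosome covariate, 0 with replicates 2 and 3 summed, 1012 by limma-voom with sample quality weights, which gave PRELP-/- replicate 1 a weight of 0.0556, and 3206 without both replicates 1. Leaving out 1 library gave 1 to 36, the highest without OMD-/- replicate 1 and 16 without PRELP-/- replicate 1. Genes with an unadjusted p under 0.05 numbered 1483, 1477, 252, 186, 3732 and 4931 with no filter, all 10 libraries, the covariate, summed replicates, quality weights and without both replicates 1, and 256 to 1401 with 1 library left out, lowest without OMD-/- replicate 2 and highest without PRELP-/- replicate 1. The replicate block gave 43 and 1474, and the calls it changed among the genes described are given beside them. Other scalings, a stricter filter, limma-voom and a non-robust fit called Prelp alone. With replicates 2 and 3 summed, Prelp had a log2 difference of -8.07 and was not called, in a fit of 4 libraries, and intervals within 1 of 0 fell to 5293 genes.

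Directions that reversed were of values not called in the main test. Some of these genes were called without both replicates 1, such as Cd74, whose log2 difference was -0.76 there. Dcn was at 0.020 with quality weights, 0.0087 without both replicates 1 and 0.21 with the Y chromosome covariate, and ranged from -0.27 to 0.050 with 1 library left out. The covariate also gave 0.065 for Bgn, 0.20 for Lum, 0.049 for Fmod, 0.11 for Jun, 0.079 for Cd74, -0.36 for Upk3a, -0.29 for Upk1a, 0.023 for Krt20, -0.36 for Hbb-bs and 0.72 for Xist, and the cause was not tested. Depth limits genes such as Omd and Optc, with few counts in a genotype.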
